A study of Mus musculus with 14 samples.

Results

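Mouse tumours grown in the strain labelled NGS were compared after treatment with an ACSS2 inhibitor (ACSS2i) or with vehicle. The samples were chosen by their labels alone: 3 NGS ACSS2i and 3 NGS vehicle tumours, 6 of the 14 libraries in the series. The other 8 libraries came from tumours in mice labelled C57BI/6, with 4 in each treatment, and were used only for a test of the difference between the strains. Bulk tumour RNA was measured by QuantSeq, a method that reads the 3' end of polyadenylated RNA, and the values are counts per gene. The series title places the work in triple negative breast cancer. It is unclear which strain NGS stands for, and whether these mice lack immune cells, which tumour line was grown, which compound was used, at what dose and for how long is not given in the sources used here. Bmal1 status is mentioned in the series' design, but no library carries such a label. No label says how the replicates relate to animals or cultures, so p-values measure the spread between these samples.

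ACSS2 joins acetate to coenzyme A in the cytosol and nucleus, which supplies acetyl-CoA for lipid synthesis and for the acetylation of histones. Interferons signal through factors such as STAT2 and IRF9, which bind interferon-stimulated response elements and switch on antiviral effectors, nucleic acid sensors and the genes that load peptides onto MHC class I. Low oxygen stabilises HIF transcription factors, which raise glucose uptake, glycolysis and mitophagy genes. Bulk tumour RNA also carries RNA from stroma, immune cells and adjoining tissue such as muscle and skin.

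Library depth was low, at 4.21 to 4.7 M counts in vehicle and 2.85 to 4.04 M in ACSS2i, against 17.6 to 20.3 M in the other strain. Levels are given below in CPM, counts scaled to the same total in every library. The first principal component of the 6 libraries held 51.5% of the variance. It placed ACSS2i 2 at 78.3 and the other libraries between -32.7 and 23.8. Among 6758 genes with a mean of 20 CPM or more, ACSS2i 2 was the highest or the lowest library in 62.3%, while the other libraries were so in 20.8% to 36.5%. It also had the smallest depth, 2.85 M. Skeletal muscle genes summed to 959, 13300 and 6210 CPM in vehicle 1 to 3 and to 1670, 79.8 and 98.4 CPM in ACSS2i 1 to 3. Skin genes summed to 1900 CPM in vehicle 1 and 846 CPM in ACSS2i 1, and to 30.5 to 92.4 CPM in the other libraries. Muscle RNA was thus lowest in ACSS2i 2 and 3 and highest in vehicle 2 and 3, and skin RNA was highest in the libraries numbered 1. The part of muscle and skin RNA in the results was not tested. Fits without the listed genes leave other genes of these tissues in place. Fits without 1 library also change the size of a group, so neither kind tests it.

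A small set of genes, most of them known as interferon-induced, rose in the treated tumours, and a smaller, mixed set fell. The edgeR quasi-likelihood test of 12548 genes called 13 higher (0.104%) and 6 lower (0.0478%) at an adjusted p under 0.05. The higher genes were H2-K1, B2m, Ifi44, Oasl2, Bst2, Rsad2, Ifit3, Rtp4, Irf7, Igtp, Ccl5, Jaml and Ms4a4c. The lower genes were Amd-ps3, Rps2-ps11, Ankrd23, Serpinb1a, Cox7c and Snrpf. For each of these 19 genes every treated library lay outside the vehicle range, a property of 12.4% of all genes in the higher and 9.44% in the lower direction. The unadjusted p was under 0.05 with higher values for 7.14% of genes and with lower values for 7.33%, and the median log2 fold change of all genes tested was -0.01. The gene lists below are read against these shares.

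**Figure D1:**
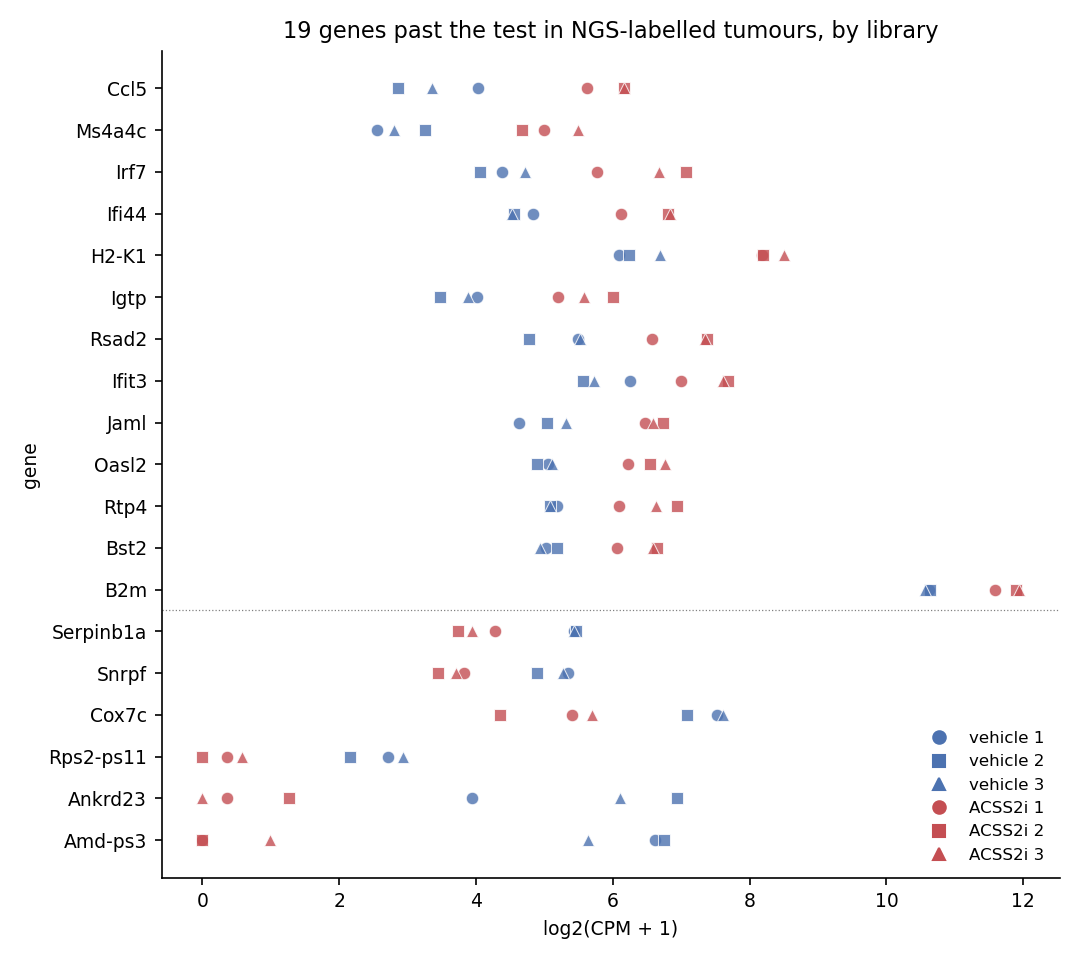
Level of each of the 19 genes past the test in the 6 NGS-labelled libraries, as log2(CPM + 1), with vehicle in blue, ACSS2i in red and a marker shape per replicate number; the dotted line separates the 13 higher from the 6 lower genes. Treated and vehicle libraries do not overlap in any row, and ACSS2i 1 is the lowest treated library in most of the higher genes.

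The count of calls depended on single libraries. It was 1 higher and 2 lower without ACSS2i 2, the library that stood apart, and 90 higher and 67 lower without ACSS2i 1, the treated library with muscle and skin RNA. Without vehicle 2 it was 0 higher and 1 lower, without vehicle 3 it was 1 and 1, and without ACSS2i 3 it was 1 and 0. Without vehicle 1 it was 11 higher and 38 lower. The 19 genes kept their direction in every one of these fits. Because their groups did not overlap, leaving out 1 library could hardly reverse it, so this is not a check of the calls. Without ACSS2i 1, 13021 genes were tested, and 1162 were higher and 1389 lower at an unadjusted p under 0.05. The same counts were 662 and 728 of 12921 without vehicle 1, 672 and 674 of 12967 without vehicle 2, and 759 and 715 of 12941 without vehicle 3. Without ACSS2i 2 they were 671 and 745 of 13047, and without ACSS2i 3 they were 690 and 656 of 13102. List counts below that leave out a library are read against the counts and calls of that fit, such as the 90 and 67 calls without ACSS2i 1.

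**Figure D2:**
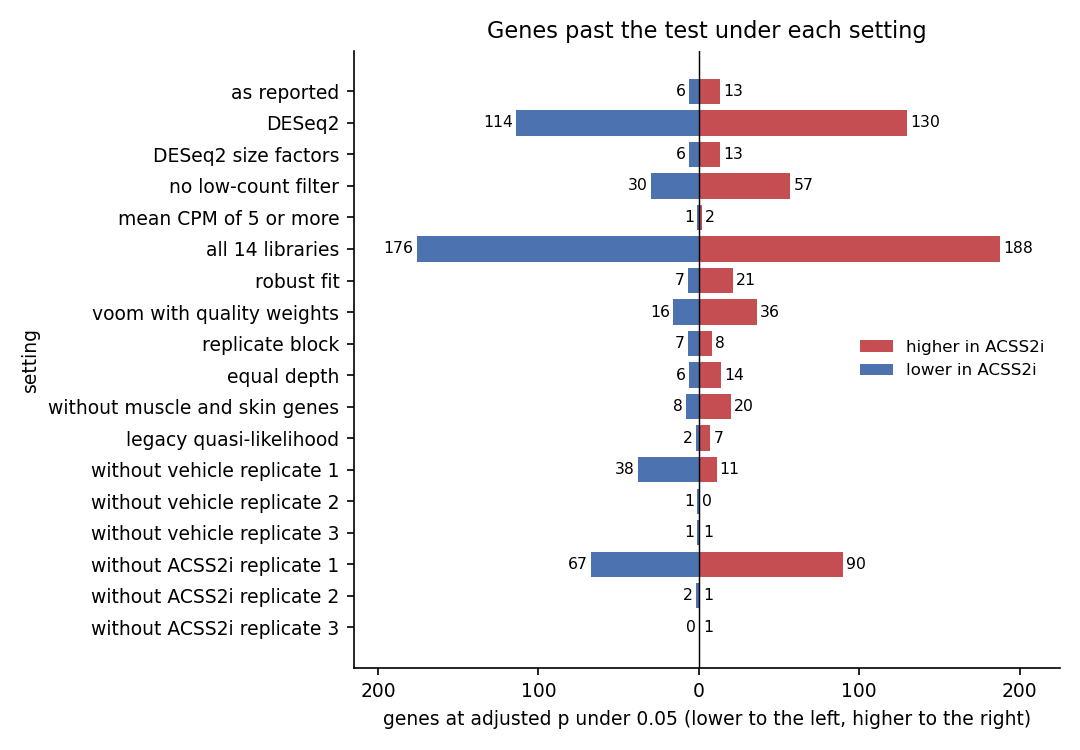
Number of genes past an adjusted p of 0.05 under each setting, with genes lower in ACSS2i as blue bars to the left and genes higher as red bars to the right. The 13 higher and 6 lower genes of the reported fit become 1 and 2 without ACSS2i replicate 2, and 90 and 67 without ACSS2i replicate 1.

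The mRNA of the inhibited enzyme was low in both groups. Acss2 was at 4.89, 1.84 and 3.33 CPM in vehicle and at 5.74, 3.51 and 1.98 CPM in ACSS2i, so the groups overlapped. Its log2 fold change was 0.10 ± 0.53 (SE), with a 95% interval of -1.09 to 1.29 (edgeR adjusted p = 0.946). Acss1, the mitochondrial acetate-activating enzyme, was at 4.23 ± 2.21 CPM in vehicle and 6.71 ± 2.63 CPM in ACSS2i (mean ± SD, n = 3 each), and its log2 fold change was 0.66 ± 0.47 (edgeR adjusted p = 0.526). Acss3, a mitochondrial acyl-CoA synthetase, had 13 counts over the vehicle group and 8 over the treated group and was below the filter on low counts. The inhibitor acts on the enzyme, so these mRNA levels do not check the labels.

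Both chains of the class I molecule rose. H2-K1, which encodes a classical heavy chain (ENSMUSG00000061232, mm10 chromosome 17, 33996017 to 34000347, protein-coding), was at 67, 74 and 102 CPM in vehicle and at 290, 292 and 360 CPM in ACSS2i. The lowest treated library was well above the highest vehicle library, and the log2 fold change was 1.92 ± 0.19 (edgeR adjusted p = 0.015). The call was lost without vehicle 2 (adjusted p = 0.147) or ACSS2i 3 (adjusted p = 0.115). B2m, the light chain that every class I heavy chain needs at the cell surface (ENSMUSG00000060802, mm10 chromosome 2, 122147686 to 122153083, protein-coding), was at 1580, 1590 and 1510 CPM in vehicle. In ACSS2i it was at 3090, 3800 and 3920 CPM, with a spread in the vehicle group of only 44.2 CPM (SD). Its log2 fold change was 1.18 ± 0.16 (edgeR adjusted p = 0.0392), and the call was lost when any library but ACSS2i 1 was left out (adjusted p up to 0.334).

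The other genes of class I presentation did not pass singly. The list held 22 tested genes, of which 2 rose, 0 fell and 20 did not pass. An unadjusted p under 0.05 was reached by 12 of the 22, all with higher values, and the list's median log2 fold change was 0.74. Without ACSS2i 2 the same count was 12 of 22 with a median of 0.52, against 5.14% of all genes higher and 5.71% lower by that rule. Heavy and light chains had a median of 0.93 over 8 genes, the immunoproteasome and its regulators 0.83 over 6, and the peptide-loading genes 0.23 over 8. Tap1, a subunit of the peptide transporter, was at 11.7, 11.1 and 17.6 CPM in vehicle and at 31.8, 58 and 56 CPM in ACSS2i (log2 fold change 1.82, edgeR adjusted p = 0.0655). Tap2, its partner, was at 0.21 (unadjusted p = 0.65). H2-D1, another heavy chain, was at 456 ± 28.6 CPM in vehicle and 832 ± 191 CPM in ACSS2i (0.83 ± 0.18, edgeR adjusted p = 0.126), and Psmb8, an immunoproteasome subunit, at 22 ± 7.99 and 51.7 ± 4.57 CPM (1.2 ± 0.26, adjusted p = 0.125; n = 3 each). H2-M3, a non-classical heavy chain, was on the other side at -0.93 (unadjusted p = 0.0771). Class I heavy chains are similar in sequence, so reads between them could be shared, although no transcript of another gene matched the last 500 bases of H2-K1 at 95% identity.

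Antiviral effectors gave the largest group of called genes. Of 38 tested, 6 rose, 0 fell and 32 did not pass, and 32 had an unadjusted p under 0.05 with higher values. The median was 1.28, and 36 of the 38 log2 fold changes were positive. Without ACSS2i 1, 24 of the 38 passed, against 90 of all 13021 genes called higher, and the median of the effectors was 1.49. Without ACSS2i 2 none passed, 32 had an unadjusted p under 0.05 and the median was 1.07, and none passed without vehicle 2, vehicle 3 or ACSS2i 3 either. Ifi44, an interferon-induced cytosolic protein (ENSMUSG00000028037, mm10 chromosome 3, 151730922 to 151749960), was at 27.4, 22.6 and 22.1 CPM in vehicle and at 68.8, 111 and 113 CPM in ACSS2i. It thus had its lowest treated value in ACSS2i 1, and the log2 fold change was 1.99 ± 0.22 (edgeR adjusted p = 0.0261). Rsad2 encodes viperin, which makes a chain-terminating nucleotide. It was at 43.8, 26.3 and 44.7 CPM in vehicle and at 94.6, 165 and 161 CPM in ACSS2i (1.84 ± 0.27, edgeR adjusted p = 0.0452). Bst2, the tether that holds budding virus at the membrane, was at 31.5, 35.3 and 29.5 CPM and at 65.7, 98.7 and 94.9 CPM (1.40 ± 0.20, edgeR adjusted p = 0.0407). In each of these genes ACSS2i 1 lay between the vehicle libraries and the other treated ones.

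The remaining called effectors had the same order of libraries. Oasl2, an oligoadenylate synthetase-like protein, was at 31.5 ± 2.45 CPM in vehicle and 91.4 ± 17.2 CPM in ACSS2i, with a log2 fold change of 1.5 ± 0.18 (mean ± SD, n = 3 each; edgeR adjusted p = 0.0345). Ifit3, a partner of the viral RNA sensor Ifit1, was at 57.7 ± 15.5 and 175 ± 41.7 CPM (1.57 ± 0.23, adjusted p = 0.0459). Rtp4, an interferon-induced receptor transporter, was at 33.7 ± 1.41 and 95.2 ± 27 CPM (1.47 ± 0.22, adjusted p = 0.046). Several effectors were as large but did not pass, among them Mx1, a GTPase that blocks virus replication, at 2.08, Cmpk2, a mitochondrial nucleotide kinase beside Rsad2, at 2.39 and Oas1g, an oligoadenylate synthetase, at 3.05. Oas1g was at 8.93, 1.38 and 3.8 CPM in vehicle and at 12.9, 67.5 and 41.9 CPM in ACSS2i. Ifi27 and Ifitm1 were the 2 members without a positive value, at 0.00 and -0.29. Each of the 6 called effectors lost its call without vehicle 2, vehicle 3, ACSS2i 2 or ACSS2i 3, with adjusted p up to 0.349, and Bst2 and Rtp4 also without vehicle 1.

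The promoters of the called genes were read for the core of the interferon-stimulated response element, GAAANNGAA on either strand, in the 250 bases before each RefSeq start site (build GRCm38.p6). RefSeq windows were at hand for 11 of the 13 higher genes, and 6 of their 12 windows (50%) held the core. It was in 7.13% of the 32851 windows of all genes, in 6.17% of those of the tested genes, in 48.5% of the 33 windows of the antiviral effectors and in 0 of the 4 windows of the lower genes. The 6 windows with a core are shown as 50 bases around it, 5′ to 3′ in the direction of the gene, with the core in capitals, because they show the letters found in these 6 genes. H2-K1, Ifi44, Irf7, Oasl2 and Ms4a4c had windows without it.
B2m: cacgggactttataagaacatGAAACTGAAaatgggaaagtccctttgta
Igtp: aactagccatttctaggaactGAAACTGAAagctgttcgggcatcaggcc
Bst2: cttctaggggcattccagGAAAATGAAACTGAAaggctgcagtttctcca
Jaml: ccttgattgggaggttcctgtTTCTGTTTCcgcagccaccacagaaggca
Rsad2: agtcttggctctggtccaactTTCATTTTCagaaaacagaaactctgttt
Ifit3: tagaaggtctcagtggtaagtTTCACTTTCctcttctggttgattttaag
The windows lie at chr2:122147527-122147576 (plus strand) for B2m, chr11:58199501-58199550 (plus) for Igtp, chr8:71537571-71537620 (minus) for Bst2, chr9:45079127-45079176 (plus) for Jaml, chr12:26456543-26456592 (minus) for Rsad2 and chr19:34583353-34583402 (plus) for Ifit3. B2m and Igtp carry the same 9 letters, GAAACTGAA, beginning 139 and 34 bases before the start. Bst2 carries that run inside 2 overlapping cores, and the window of Ifit3 shows the first of 3 cores. In Jaml, Rsad2 and Ifit3 the core lies on the opposite strand. A match describes the letters of these windows and is not a measured binding site. The antiviral effectors were listed by their known role, so their share describes the list and not these libraries.

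Among the interferon regulators Irf7 rose. Irf7, the transcription factor that drives type I interferon genes (ENSMUSG00000025498, mm10 chromosome 7, 141262706 to 141266481), was at 19.8, 15.7 and 25.2 CPM in vehicle and at 53.6, 133 and 101 CPM in ACSS2i. The 2 treated libraries with little muscle RNA were the highest, and the log2 fold change was 2.21 ± 0.33 (edgeR adjusted p = 0.0459). The call was lost when any library but ACSS2i 1 was left out (adjusted p up to 0.334). Of the 10 transcription factors tested, 1 rose, 9 did not pass, and 7 had an unadjusted p under 0.05 with higher values. Stat2 and Irf9, subunits of the complex that binds the response element, were at 0.96 (edgeR adjusted p = 0.142) and 0.65 (adjusted p = 0.207). The list's median was 0.53.

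The interferon genes on the list were not detected. All 9 interferon ligands on the list, Ifnb1, Ifng and 7 others, had 0 counts in the 6 libraries, which allows up to 0.226 CPM over the vehicle group and 0.289 CPM over the treated group. The receptor Ifnar2 was at 122 ± 6.64 CPM in vehicle and 155 ± 8.07 CPM in ACSS2i (log2 fold change 0.30, edgeR adjusted p = 0.336), and Ifnar1 was at 0.40 (adjusted p = 0.382). The gamma receptor chains Ifngr1 and Ifngr2 were at 0.14 and -0.17 and overlapped between the groups. Limits from 0 counts cover counting error only.

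Genes of ISG15 conjugation, nucleic acid sensors and interferon-induced GTPases had higher values in the treated libraries, with 1 call among them. All 5 ISG15 conjugation genes had an unadjusted p under 0.05 with higher values and groups that did not overlap, a median of 1.34, and no call, against 3 calls without ACSS2i 1. Usp18, the protease that removes ISG15, was at 5.32, 4.15 and 5.23 CPM in vehicle and at 15.5, 37.2 and 17.8 CPM in ACSS2i (log2 fold change 2.21 ± 0.39, edgeR adjusted p = 0.0848). Ube2l6, the conjugating enzyme, was at 1.65 ± 0.27 (adjusted p = 0.0655), and Isg15 itself at 0.94 ± 0.23 (adjusted p = 0.158). Ube2l6 has 2 near-identical copies, and the sum with them was 36.4, 30.6 and 26.6 CPM in vehicle and 62.5, 132 and 103 CPM in ACSS2i, without overlap. Of 10 nucleic acid sensors, 0 passed, 6 had an unadjusted p under 0.05 with higher values, and the median was 0.77. Zbp1, a sensor of Z-form nucleic acid, was at 11.5 ± 2.89 and 30.1 ± 4.83 CPM (1.36 ± 0.26, edgeR adjusted p = 0.0963). Without ACSS2i 1, 2 of the 10 were called, and without ACSS2i 2 the sensors' count was 4 of 10 and their median 0.46.

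Igtp was the called member of the GTPase list. Igtp, an immunity-related GTPase that acts on the vacuoles of intracellular parasites (ENSMUSG00000078853, mm10 chromosome 11, 58199556 to 58207591), was at 15.1, 10.1 and 13.8 CPM in vehicle and at 35.6, 63.2 and 46.8 CPM in ACSS2i. The groups were apart by more than a doubling, with a log2 fold change of 1.86 ± 0.26 (edgeR adjusted p = 0.0407). Its call was lost without vehicle 2, vehicle 3, ACSS2i 2 or ACSS2i 3 (adjusted p up to 0.334). Of 11 GTPases tested, 1 rose and 10 did not pass, and all 11 log2 fold changes were positive with a median of 1.2. Without ACSS2i 1, 6 of 12 tested were called, against 90 higher among all 13021 genes. The immunity-related GTPases had a median of 1.72 over 5 genes and the guanylate-binding proteins 1.18 over 6. Iigp1 was at 20.8, 11.5 and 23.8 CPM in vehicle and at 54.2, 54.1 and 79.8 CPM in ACSS2i (1.72 ± 0.28, edgeR adjusted p = 0.0655), and Gbp3 was at 1.82 ± 0.34 (adjusted p = 0.0963).

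Ccl5 was the called chemokine. Ccl5, which draws T cells, natural killer cells and monocytes (ENSMUSG00000035042, mm10 chromosome 11, 83525778 to 83530518), was at 15.3, 6.22 and 9.27 CPM in vehicle and at 48.2, 70.3 and 70.6 CPM in ACSS2i. Its log2 fold change was 2.58 ± 0.31 (edgeR adjusted p = 0.0345), the largest among the 13 higher genes, and the call was lost without vehicle 2, vehicle 3, ACSS2i 2 or ACSS2i 3 (adjusted p up to 0.218). Cxcl10 and Cxcl9, chemokines that interferons induce, did not pass. Cxcl10 was at 8.72, 5.53 and 12.6 CPM in vehicle and at 25.8, 32.7 and 29.5 CPM in ACSS2i (1.68 ± 0.30, adjusted p = 0.0848). Cxcl9 was at 4.47, 0.691 and 2.14 CPM and at 5.16, 45 and 33 CPM, so that ACSS2i 1 was close to vehicle 1. Ccl8, a ligand for monocytes, lay on the other side without passing, at 203, 194 and 285 CPM in vehicle and at 98.9, 109 and 113 CPM in ACSS2i (-1.12 ± 0.18, edgeR adjusted p = 0.0655). The whole list of 17 tested chemokines had a median of -0.05.

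Among genes outside these lists, Ms4a4c and Jaml rose. Ms4a4c, a leukocyte membrane protein of the MS4A family (ENSMUSG00000024675, mm10 chromosome 19, 11404770 to 11427246), was at 4.89, 8.52 and 5.94 CPM in vehicle and at 31, 24.6 and 44.1 CPM in ACSS2i (log2 fold change 2.34 ± 0.31, edgeR adjusted p = 0.0392). Jaml, an adhesion molecule of leukocytes, was at 23.6, 31.8 and 39 CPM and at 87.7, 105 and 95.2 CPM (1.57 ± 0.21, adjusted p = 0.0392). For Ms4a4c ACSS2i 1 lay between the other treated libraries, and for Jaml it was the lowest of them. Both calls were lost without vehicle 2, vehicle 3, ACSS2i 2 or ACSS2i 3 (adjusted p up to 0.27).

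The macrophage and monocyte sum was higher in the treated libraries, other myeloid sums were not, and many lymphocyte markers were at 0. Macrophage and monocyte genes summed to 4140 to 5750 CPM in vehicle and 6130 to 6650 CPM in ACSS2i, with 0 of 25 tested genes past the test, 8 at an unadjusted p under 0.05 with higher values and 1 with lower, and a median of 0.36. Ly6c2, of inflammatory monocytes, was at 6.59, 3.23 and 2.61 CPM in vehicle and at 15.2, 60.1 and 44.4 CPM in ACSS2i (log2 fold change 3.21 ± 0.53, edgeR adjusted p = 0.0661). Its transcript is close to that of Ly6c1, and the sum with its 2 copies was 144, 179 and 154 CPM in vehicle and 159, 239 and 210 CPM in ACSS2i, which overlapped. Cd163, a scavenger receptor of tissue macrophages, was at 33.7 ± 10 and 13 ± 5.18 CPM (-1.38 ± 0.33, adjusted p = 0.15). Dendritic cell genes summed to 348, 337 and 335 CPM in vehicle and to 262, 221 and 329 CPM in ACSS2i, whereas the 5 tested ones had a median log2 fold change of 0.48, with 1 higher and 1 lower at an unadjusted p under 0.05. Neutrophil sums were 55.5 to 262 and 86.7 to 198 CPM and overlapped. T cell genes summed to 11.9 to 20.6 CPM in vehicle and 11.9 to 22.1 CPM in ACSS2i, and 5 of 20, among them Cd3e, Cd3g, Foxp3 and Ctla4, had no count. Natural killer and cytotoxic cell genes summed to 53.5 to 90.6 and 59 to 89 CPM, with 7 of 16, among them Ncr1, Gzma and Gzmb, at 0. Most of that sum came from the 1 gene of the 16 that was tested, with a log2 fold change of -0.03. The others were below the filter on low counts. B and plasma cell genes summed to 3.4 to 11.5 and 8.78 to 9.46 CPM, with 5 of 14 at 0. Only 1 gene was tested in the T cell list and 1 in the B and plasma cell list. In bulk tissue more cells of a type and more RNA per cell cannot be told apart, and the part of myeloid cells in the interferon and class I genes was not tested.

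Class II genes did not pass. Of 7 tested, 0 passed, 4 had an unadjusted p under 0.05 with higher values, and the median was 0.54. Ctss, the protease that trims the class II invariant chain, was at 483, 674 and 589 CPM in vehicle and at 840, 1120 and 931 CPM in ACSS2i (log2 fold change 0.70 ± 0.18, edgeR adjusted p = 0.166). Cd74, the invariant chain, was at 0.59 (adjusted p = 0.334) and H2-Aa at -0.37 (adjusted p = 0.514). Without ACSS2i 2 the count was 2 of 7 and the median 0.29.

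**Figure D3:**
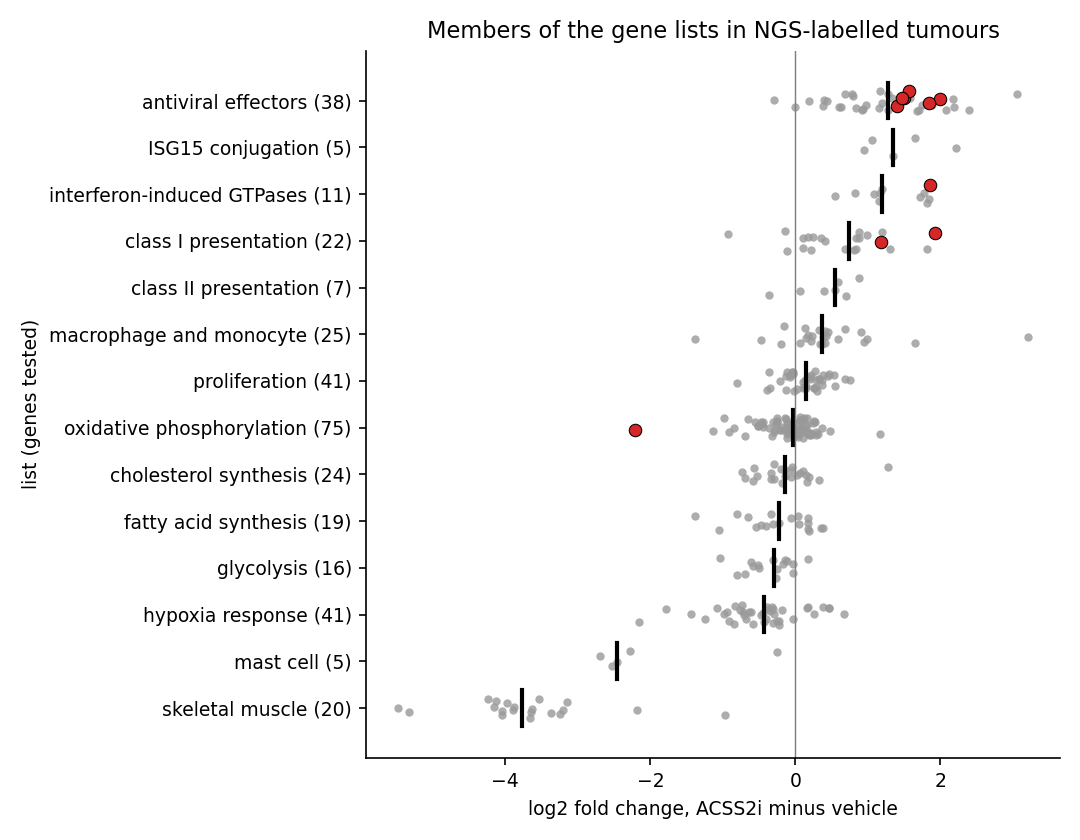
Log2 fold change (ACSS2i minus vehicle) of each tested member of 14 gene lists, grey where the gene did not pass and red where it did, with the list's median as a black bar. The antiviral effectors are centred at 1.28 and the skeletal muscle genes at -3.77, while oxidative phosphorylation is centred at -0.04 with Cox7c as its called gene.

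Serpinb1a, Snrpf, Cox7c and the muscle gene Ankrd23 were the protein-coding genes that fell, and the other 2 lower genes were pseudogenes. Serpinb1a, an inhibitor of neutrophil serine proteases (ENSMUSG00000044734, mm10 chromosome 13, 32842092 to 32851185), was at 42.3, 43.1 and 42.1 CPM in vehicle and at 18.4, 12.3 and 14.4 CPM in ACSS2i. The vehicle libraries differed by little, and the log2 fold change was -1.53 ± 0.21 (edgeR adjusted p = 0.0392). Snrpf, a core protein of spliceosomal ribonucleoproteins, was at 39.8, 28.6 and 37.6 CPM and at 13.2, 9.84 and 12.1 CPM (-1.61 ± 0.23, adjusted p = 0.0407). Serpinb1a lost its call without vehicle 2, vehicle 3, ACSS2i 2 or ACSS2i 3 and Snrpf without any library but ACSS2i 1 (adjusted p up to 0.334 in both). For Cox7c it was lost without vehicle 2, vehicle 3 or ACSS2i 3 (up to 0.194). Cox7c, a subunit of cytochrome c oxidase (ENSMUSG00000017778, mm10 chromosome 13, 86044816 to 86046904), was at 183, 134 and 194 CPM and at 41.3, 19.3 and 50.8 CPM (-2.21 ± 0.30, edgeR adjusted p = 0.0395). Cox7c has 4 near-identical copies in the annotation, and the sum of gene and copies was 514, 478 and 539 CPM in vehicle and 365, 61.8 and 245 CPM in ACSS2i. ACSS2i 2 was the lowest library in that sum by a wide margin, so how counts were divided between Cox7c and its copies leaves the size of its fall uncertain.

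Ankrd23 and both pseudogenes were near 0 in the treated libraries. Ankrd23, an ankyrin repeat protein of muscle that binds titin (mm10 chromosome 1, 36530188 to 36536883), was at 14.3, 121 and 68 CPM in vehicle and at 0.287, 1.41 and 0 CPM in ACSS2i (log2 fold change -7.07 ± 1.00, edgeR adjusted p = 0.0392). Its 3' end is shared with the transcript Gm42417 at 100% identity, and the sum of both was at least 38.3 CPM in each vehicle library and 14.9, 4.92 and 3.72 CPM in ACSS2i, a smaller fold difference than for Ankrd23 alone and without overlap. Among the vehicle libraries Ankrd23 was lowest in vehicle 1 and highest in vehicle 2, as the muscle sum was. ACSS2i 1 had a larger muscle sum than vehicle 1 and less Ankrd23, and most of its sum of both genes was Gm42417, at 14.6 CPM. The part of muscle RNA in the Ankrd23 values was not tested. The muscle ankyrin repeat genes Ankrd2 and Ankrd1 were at -4.79 (adjusted p = 0.073) and -1.41 (adjusted p = 0.0848). Amd-ps3, a processed pseudogene of S-adenosylmethionine decarboxylase, was at 96.8, 107 and 48.5 CPM in vehicle and at 0, 0 and 0.991 CPM in ACSS2i (-7.69 ± 0.64, edgeR adjusted p = 0.000594). Summed with its 6 copies it was at 427, 325 and 309 CPM in vehicle and at 330, 293 and 270 CPM in ACSS2i, values that overlap between the groups. Rps2-ps11, with 32 copies, was at 5.53, 3.46 and 6.66 CPM and at 0.287, 0 and 0.496 CPM (-4.06 ± 0.69, adjusted p = 0.0459), and the sum with its copies was 1330 to 1840 CPM in vehicle and 864 to 1580 CPM in ACSS2i. How reads were divided between these pseudogenes and their copies is not given in the sources used here, so both calls are uncertain. Amd-ps3 lost its call without ACSS2i 3 (adjusted p = 0.0531), Ankrd23 without vehicle 2, vehicle 3, ACSS2i 2 or ACSS2i 3 (up to 0.344) and Rps2-ps11 without any 1 of the 6 (up to 0.367).

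Most genes with groups that did not overlap, 1561 higher and 1184 lower in all, did not pass the test. Pfn2, Dkk2, Wnt7b and Dcn were taken from those with the smallest p. Pfn2, an actin-binding profilin, was at 15.3, 19.1 and 14.3 CPM in vehicle and at 3.73, 4.92 and 5.2 CPM in ACSS2i (log2 fold change -1.84 ± 0.30, edgeR adjusted p = 0.0655). Dkk2, a secreted regulator of Wnt signalling, was at 52.3 ± 5.11 and 25.7 ± 4.61 CPM (-1.05 ± 0.19, adjusted p = 0.0888), whereas Wnt7b, a Wnt ligand, was at 93 ± 11.2 and 199 ± 30.8 CPM (1.06 ± 0.17, adjusted p = 0.0655). Dcn, a matrix proteoglycan of fibroblasts, was at 1810, 1180 and 1180 CPM in vehicle and at 809, 449 and 596 CPM in ACSS2i (-1.20 ± 0.24, adjusted p = 0.11). Col1a2, a collagen I chain, was at -1.0 ± 0.26 (adjusted p = 0.172), but the 15 fibroblast genes together had a median of -0.04, with 5 lower and 1 higher at an unadjusted p under 0.05.

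None of the 41 hypoxia genes passed the test, although 34 had negative log2 fold changes. The list had 13 at an unadjusted p under 0.05 with lower values and 1 with higher, against 7.33% and 7.14% of all genes, and a median of -0.43. Without ACSS2i 1, 8 of the 41 were called lower, 20 had an unadjusted p under 0.05 with lower values and the median was -0.55. Of all 13021 genes in that fit, 67 were called lower and 1389 had an unadjusted p under 0.05 with lower values. Without ACSS2i 2 no hypoxia gene was called and the list's median was -0.33. At an unadjusted p under 0.05, 14 were then lower and 2 higher, and without ACSS2i 3 the 13 became 8. Bnip3, a mitophagy receptor, was at 154, 142 and 129 CPM in vehicle and at 98.4, 80.8 and 76.1 CPM in ACSS2i (log2 fold change -0.76 ± 0.15, edgeR adjusted p = 0.11). Slc2a1, the glucose transporter GLUT1, was at 116, 101 and 71.5 CPM and at 49.6, 20 and 38.2 CPM (-1.44 ± 0.30, adjusted p = 0.121). Egln3, an oxygen-sensing prolyl hydroxylase, was at 60.2, 73.5 and 59.9 CPM and at 48.5, 39.4 and 35.7 CPM (-0.68 ± 0.18, adjusted p = 0.186). In all 3 genes the groups did not overlap. Hif1a, the oxygen-regulated subunit itself, was at -0.23 (unadjusted p = 0.16), and Angptl4, a lipase inhibitor, was at 0.67 (unadjusted p = 0.0181) on the other side.

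By role, the mitophagy and mitochondrial members had a median of -0.72 over 5 genes and the oxygen sensors -0.20 over 8. The 16 glycolysis genes had a median of -0.29, with 15 negative and 6 lower at an unadjusted p under 0.05, which were 1 without vehicle 2 and 2 without ACSS2i 3. Eno1, an enolase, was at 336, 324 and 216 CPM in vehicle and at 201, 178 and 174 CPM in ACSS2i (-0.69 ± 0.18, edgeR adjusted p = 0.174). Ldha, which makes lactate, was at 620, 673 and 531 CPM and at 520, 391 and 399 CPM (-0.51 ± 0.16, adjusted p = 0.24). Pfkm, the muscle form of phosphofructokinase, was at 43.6, 93.1 and 48.7 CPM and at 40.1, 18.3 and 33.2 CPM, highest in vehicle 2, the library with the most muscle RNA. The core of the hypoxia response element, ACGTG on either strand, was in 50% of the 42 promoter windows of the hypoxia genes, against 21.4% of the windows of tested genes and 16.6% of all windows. These genes were listed by their known role in hypoxia, so that share describes the list and not these libraries. The part of muscle RNA in the glycolysis values was not tested.

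**Figure D4:**
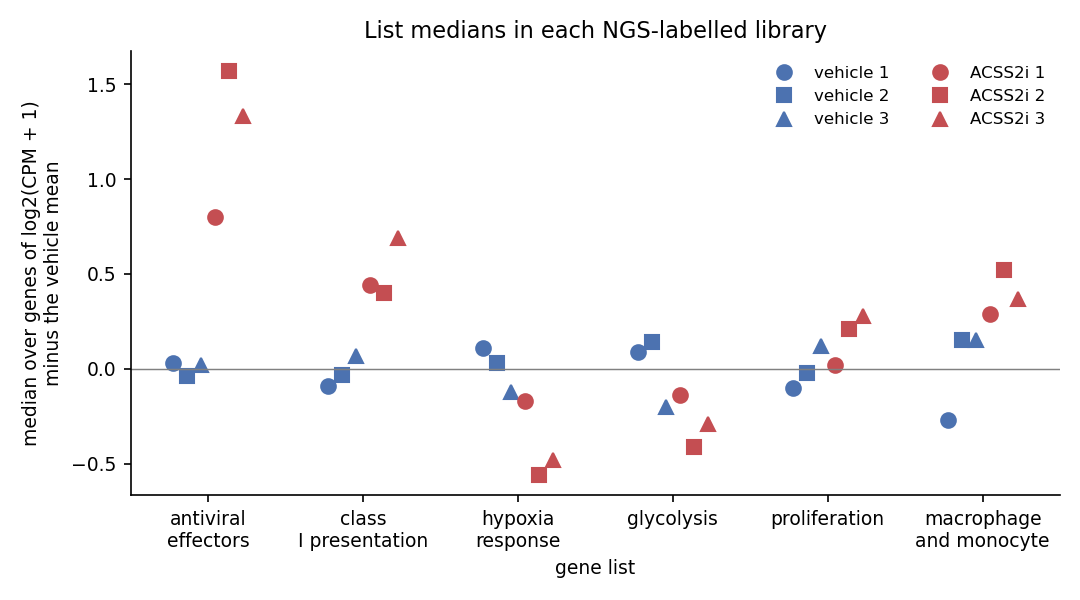
Median over the genes of 6 lists of each library's log2(CPM + 1) minus the mean of the vehicle libraries, with vehicle in blue, ACSS2i in red and a marker shape per replicate number. For antiviral effectors ACSS2i 1 is at 0.80 and ACSS2i 2 and 3 are at 1.57 and 1.33, and for the hypoxia genes the treated libraries are at -0.17, -0.56 and -0.48.

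The treated libraries were graded in the same order in several lists. The antiviral median was 0.80 in ACSS2i 1, 1.57 in ACSS2i 2 and 1.33 in ACSS2i 3 above the vehicle mean, and the vehicle libraries were between -0.04 and 0.03. The hypoxia median was -0.17, -0.56 and -0.48 in the treated libraries and -0.12 to 0.11 in vehicle. Muscle genes were at -1.43, -5.66 and -5.07 in the treated libraries and at -2.32, 1.79 and 0.48 in vehicle. Leaving the 60 listed muscle and skin genes out before the fit gave 20 higher and 8 lower genes. The muscle gene Ankrd23 stayed in that fit, so the part of muscle RNA was not tested by it.

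Genes of acetyl-CoA supply and lipid synthesis did not pass. Of 14 acetyl-CoA genes, 0 passed and the median was 0.03. The smallest p was that of Mpc1, a subunit of the mitochondrial pyruvate carrier, at 26.6, 28.6 and 27.6 CPM in vehicle and at 21.8, 10.9 and 17.3 CPM in ACSS2i (log2 fold change -0.74 ± 0.26, edgeR adjusted p = 0.258). Acly, which splits citrate into acetyl-CoA, and Slc25a1, which exports citrate, were at -0.03 and 0.16. Of 19 fatty acid synthesis genes, 0 passed, 4 had an unadjusted p under 0.05 with lower values and the median was -0.22. Srebf1, the transcription factor of lipid synthesis, was at 26.6, 32.7 and 21.2 CPM in vehicle and at 15.2, 3.86 and 11.6 CPM in ACSS2i (-1.39 ± 0.38, adjusted p = 0.196), without overlap. Scd2, a desaturase, was at -0.55 ± 0.17 (adjusted p = 0.234). The 24 cholesterol synthesis genes had a median of -0.15 and 0 calls, with Msmo1, a sterol demethylase, at -0.53 ± 0.17 and Tm7sf2, a sterol reductase, at 1.28 ± 0.45 on the other side.

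Oxidative phosphorylation and ribosomal lists were centred near 0, and the TCA cycle list, with no call, had a median of -0.28. Of 75 oxidative phosphorylation genes, Cox7c fell, 0 rose and 74 did not pass, and the median was -0.04. An unadjusted p under 0.05 was reached by 13 with lower and 2 with higher values, against 7.33% and 7.14% of all genes. Beside Cox7c, Slc25a4, the ADP/ATP carrier, was at -0.70 ± 0.15 (edgeR adjusted p = 0.122) and Uqcrc1, a core protein of complex III, at 1.17 ± 0.28 (adjusted p = 0.145). Ndufa1, a small subunit of complex I, was at 114, 113 and 99.4 CPM in vehicle and at 78.9, 34.4 and 63.4 CPM in ACSS2i. The TCA cycle median was -0.28 over 18 genes, with 12 negative, and 3 lower and 0 higher at an unadjusted p under 0.05. Without vehicle 3 the lower count was 1. By library the TCA cycle list was at -0.16, -0.40 and -0.06 in ACSS2i 1 to 3, against -0.01 to 0.02 in vehicle. Its summed CPM overlapped, at 1690 to 1700 in vehicle and 1620 to 1720 in ACSS2i. Ribosomal protein genes had a median of -0.10 over 79 genes, with 11 lower and 1 higher at an unadjusted p under 0.05. Rpl39, a small protein of the large subunit, was at 1160, 1040 and 964 CPM in vehicle and at 761, 315 and 641 CPM in ACSS2i (-0.91 ± 0.27, adjusted p = 0.223), again lowest in ACSS2i 2.

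Stress and growth lists held no called gene. Proliferation genes had a median of 0.15 over 41 genes, and Mcm7, a helicase subunit of replication, was at 130 ± 7.77 CPM in vehicle and 224 ± 70.4 CPM in ACSS2i (log2 fold change 0.75 ± 0.22, edgeR adjusted p = 0.215), while its partner Mcm4 was at -0.80 ± 0.24 (adjusted p = 0.223). Pdia4, a disulfide isomerase of the endoplasmic reticulum, was at 77.9, 133 and 113 CPM in vehicle and at 234, 353 and 251 CPM in ACSS2i (1.33 ± 0.23, adjusted p = 0.0823), in an unfolded protein list with a median of 0.05. Among the Nrf2 targets Hmox1, the haem-degrading enzyme, was at 52.1, 38.5 and 45.6 CPM and at 24.7, 29.5 and 27.3 CPM (-0.77 ± 0.19, adjusted p = 0.15), and Txn1, thioredoxin, was at -0.90 ± 0.21 (adjusted p = 0.145). The Nrf2 median was -0.12 over 19 genes. Nr4a1, an immediate early receptor, was at 29.1, 16.1 and 15.4 CPM and at 7.74, 0.703 and 5.95 CPM (-2.04 ± 0.51, adjusted p = 0.158). Lysosome genes had a median of 0.08 over 26 genes, 5 of them at an unadjusted p under 0.05 with higher values, with Npc2, a cholesterol-binding protein, at 833 ± 62.1 and 1460 ± 286 CPM (0.78 ± 0.17, adjusted p = 0.132). The p53 and heat shock medians were -0.10 and 0.02.

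**Figure D5:**
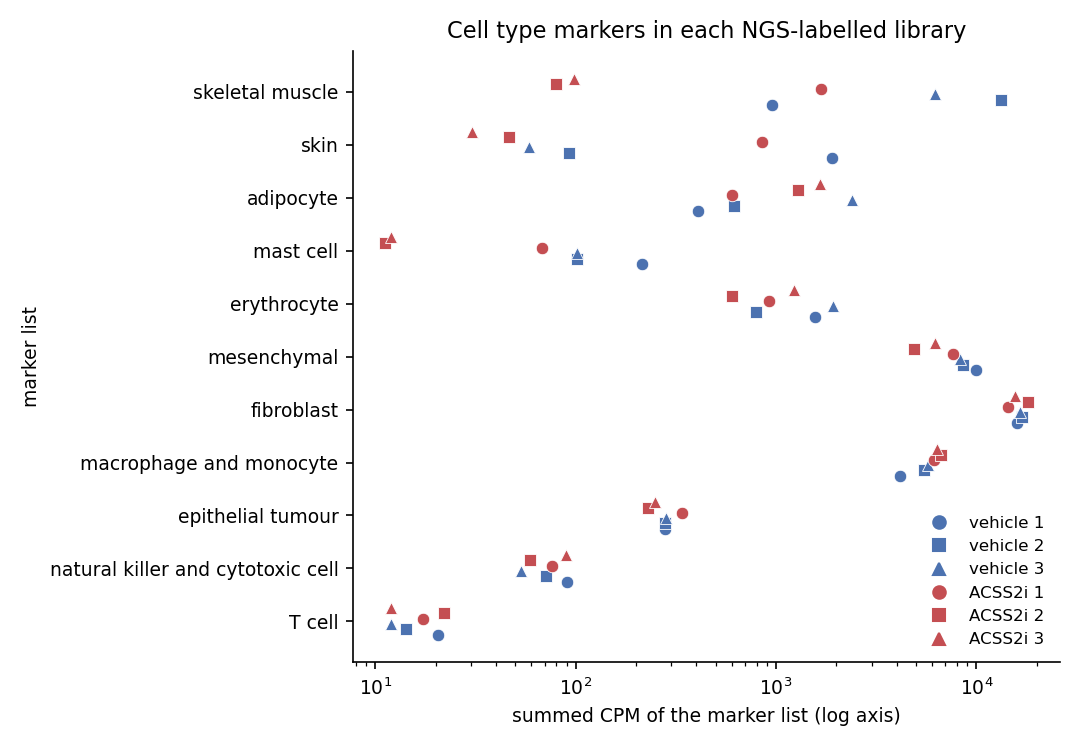
Summed CPM of 11 cell type marker lists in each library on a log axis, with vehicle in blue, ACSS2i in red and a marker shape per replicate number. Muscle genes span 79.8 to 13300 CPM, skin genes are highest in vehicle 1 and ACSS2i 1, and mast cell genes are at 101 CPM or more in vehicle and at 67.7 CPM or less in ACSS2i.

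Muscle genes had the largest median fold change of the lists tested, with no call. All 20 had an unadjusted p under 0.05 with lower values and a median of -3.77, but the groups overlapped in 17 of them, in each of which ACSS2i 1 was above the lowest vehicle library. Myh4, the fast myosin heavy chain, was at 18.3, 1880 and 744 CPM in vehicle and at 61.4, 2.81 and 3.22 CPM in ACSS2i (log2 fold change -5.33 ± 1.5, edgeR adjusted p = 0.204). Actn3, the actinin of fast fibres, was at -5.48 ± 1.30 (adjusted p = 0.145). Without ACSS2i 1, 9 of the 20 were called lower, against 67 of all 13021 genes, and the median was -7.77. Without vehicle 1, 4 were called lower, against 38 of all 12921 genes, with a median of -4.27. Without ACSS2i 2 none was called, 14 of 20 had an unadjusted p under 0.05 and the median was -3.31, and without vehicle 2 these were 9 and -2.76. Skin genes were at a median of -1.05 over 9 tested genes with 0 at an unadjusted p under 0.05, and 8 of the 40 on the list, all hair keratins, had no count. The direction of the skin list turned with 1 library. Without vehicle 1 its median was 1.74 with 3 of 9 higher at an unadjusted p under 0.05, and without ACSS2i 1 it was -3.9 with 5 of 9 lower. Krt14, a basal keratin, was at 324, 43.8 and 27.1 CPM in vehicle and at 71.1, 11.9 and 6.44 CPM in ACSS2i. Whether these tissues were taken with the tumour or lay within it was not tested.

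Mast cell proteases had lower values in the treated libraries and did not pass. Of 5 mast cell genes tested 4 had an unadjusted p under 0.05, with no overlap and a median of -2.46 for the list. Without ACSS2i 1 these 4 were called lower, against 67 of all 13021 genes, and the median was -4.96. Without ACSS2i 3 none of the 5 was called and 2 had an unadjusted p under 0.05. Mcpt4, a mast cell chymase, was at 22.8, 10.1 and 14.7 CPM in vehicle and at 6.02, 0 and 1.24 CPM in ACSS2i (log2 fold change -2.69 ± 0.66, edgeR adjusted p = 0.158). Tpsb2, a tryptase, was at 68.5, 36.4 and 29.2 CPM and at 20.6, 0.703 and 1.98 CPM (-2.53 ± 0.75, adjusted p = 0.223), and Cpa3, a carboxypeptidase, followed at -2.46 ± 0.81 (adjusted p = 0.248). Kit, the receptor on which mast cells depend, was at -0.26 (adjusted p = 0.787) and is also made by other cells. The mast cell sum was 214, 102 and 101 CPM in vehicle and 67.7, 11.2 and 11.9 CPM in ACSS2i. Its lowest libraries, ACSS2i 2 and 3, had the least muscle RNA. Its highest library, vehicle 1, had less muscle RNA (959 CPM) than ACSS2i 1 (1670 CPM) and the other vehicle libraries. Mast cells reside in skin and connective tissue, and the part of adjoining tissue in this difference was not tested.

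Markers of the labelled tissue, a tumour, were also counted. Epithelial markers summed to 279 to 283 CPM in vehicle and 230 to 341 CPM in ACSS2i, only 4 of 15 were tested, and Elf3 had no count. Mesenchymal markers summed to 8310 to 9900 CPM in vehicle and 4860 to 7660 CPM in ACSS2i, with 0 of 10 past the test and a median of -0.28. Vim, the intermediate filament vimentin, was at 6670, 5440 and 5370 CPM in vehicle and at 4130, 2550 and 3830 CPM in ACSS2i (log2 fold change -0.77 ± 0.21, edgeR adjusted p = 0.191). Adipocyte genes summed to 406 to 2400 and 599 to 1650 CPM, highest in vehicle 3, with a median of 0.95 and 0 of 13 at an unadjusted p under 0.05. That count depended on single libraries. Without vehicle 3 it was 11 of 14, all higher, with a median of 1.75, and without ACSS2i 1 it was 4 of 13, all higher. Without vehicle 1 it was 0 higher and 1 lower, and without vehicle 2, ACSS2i 2 or ACSS2i 3 it was 0. Endothelial genes had a median of 0.16 over 15 genes, 2 of them, Pecam1 and Emcn, at an unadjusted p under 0.05 with higher values. Neutrophil genes had a median of -0.80 over 6 genes, with 0 at an unadjusted p under 0.05. S100a8, a neutrophil calcium-binding protein, was at 24.2, 4.38 and 15.9 CPM in vehicle and at 5.16, 6.32 and 9.42 CPM in ACSS2i.

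ACSS2i 2 departed from the other treated libraries in single genes. Gpnmb, a glycoprotein of macrophages and melanocytes, was at 121 CPM in ACSS2i 2 and at 4.15 to 6.2 CPM elsewhere. Cd36, a fatty acid transporter, was at 139 CPM there, against 12 and 56.8 CPM in ACSS2i 1 and 3. Hmga1, a chromatin protein, was at 14.4 CPM in ACSS2i 2, at 539 and 88.7 CPM in ACSS2i 1 and 3 and at 430 to 562 CPM in vehicle. Ccn2, a matrix protein induced by TGF-beta, was at 11.6 CPM against 243 and 76.6 CPM, and Dynlt1b, a dynein light chain, had no count against 159 and 78.8 CPM. Of the 6758 genes examined 2114 were highest in this library and 2094 lowest. The single genes named here were chosen after their values were seen, and they were not searched for near-identical copies.

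The difference between the inhibitor's effects in the NGS and C57BI/6 strains was tested as an interaction over all 14 libraries, in which 3 of 17294 genes passed (0.0173%). Serpinb1a was at 17.8 ± 2.6 CPM in C57BI/6 vehicle and 24 ± 6.63 CPM in C57BI/6 ACSS2i (mean ± SD, n = 4 each). Its effect was -1.54 in NGS and 0.37 in C57BI/6 on the log2 scale, and the difference (C57BI/6 minus NGS) was 1.91 ± 0.29 (edgeR adjusted p = 0.0491). Pfn2 was at 3.71 ± 0.697 and 4.48 ± 0.552 CPM in C57BI/6, with a difference of 2.07 ± 0.31 (adjusted p = 0.0491), so the treated NGS libraries were near the C57BI/6 level. Amd-ps3 differed by 7.61 ± 0.77 (adjusted p = 0.000142), with the uncertainty on pseudogene reads given above. No interferon or class I gene passed: the difference was -0.96 for B2m (95% interval -1.36 to -0.56, adjusted p = 0.149), -1.24 for H2-K1 (-1.81 to -0.68, adjusted p = 0.151) and -0.98 for Ifi44 (-1.58 to -0.38, adjusted p = 0.234). For Ccl5 it was -0.60 (-1.5 to 0.30, adjusted p = 0.566) and for Ly6c2 -0.02 (-1.25 to 1.21, adjusted p = 1). The strains also differed in depth, which cannot be told apart from strain.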

How the data were processed

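QuantSeq counts of 6 NGS libraries (3 vehicle, 3 ACSS2i) of the 14 deposited were compared; groups came from the labels. The authors deposited whole-number counts per gene for 51789 genes with Ensembl IDs. The submitters' processing notes name mm10, RSEM 1.2.3 and DESeq2 without their roles; the aligner and the annotation are not given in the sources used here, and RSEM estimates may have been rounded. GENCODE M21 gave symbols for 51596 genes and none for 193, and the table has no mitochondrial gene. These counts entered the tests without change.

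Genes kept by edgeR's filterByExpr (12548) were scaled by TMM and tested with the quasi-likelihood test of edgeR 4.0.16 (R 4.3.3, two-sided, Benjamini-Hochberg, threshold 0.05), with 1 mean per group and only these 6 libraries. The interaction used all 14. Alternatives were DESeq2 1.42.0, its size factors, limma 3.58.1 voom weights, other filters, a robust fit, a replicate block, equal depth (2846161 counts per library), all 14 libraries, muscle and skin genes left out, each library left out, and edgeR's older dispersion method, added after seeing the data. An exact permutation test of 3 against 3 cannot go below p = 0.1, so none was used.

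Named genes are those past the test, up to 12 per direction with the smallest p among non-overlapping protein-coding genes of 5 CPM or more, the Acss genes, and, for a described list, at most 4 of its lowest-p members or those of 1 role. Not all are printed, and some members are named for contrast, chosen after their values were seen. Comparison, members and lists were chosen with earlier results of these data known. Copies were sought with blastn 2.17.0 in the last 500 bases of 45 of the named genes (95% identity over 100 bases), and 8 had one. These 45 were the genes past the test, those chosen by smallest p in each direction, and Acss1 and Acss2. Other genes named in the text were not searched for copies. The test was checked on simulated data. Pairs of libraries within a group had a chi-square per degree of freedom of 6.62 to 17.8, above counting noise, and each library was counted as 1 sample.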

Additional observations from a re-analysis of the deposited data

Results flagged for a closer look

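The inhibitor's effect differed between the strains, by the interaction test over all 14 libraries, in 3 genes: Amd-ps3 by 7.61, Pfn2 by 2.07 and Serpinb1a by 1.91 on the log2 scale (C57BI/6 minus NGS, edgeR adjusted p = 0.000142, 0.0491 and 0.0491). Amd-ps3 shares its sequence with 6 copies. Pfn2 and Serpinb1a were just past the threshold.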

How the results depend on the processing

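Higher and lower genes in NGS numbered 130 and 114 with DESeq2, 57 and 30 with no low-count filter, 2 and 1 with a mean CPM of 5 or more, 188 and 176 with all 14 libraries, 36 and 16 with voom, 7 and 2 with the older dispersion method, and 21 higher with the robust fit and 20 without muscle and skin genes. With the replicate block they were 8 and 7, with 8 of the 19 genes kept; deviations of libraries with equal numbers correlated at 0.028 to 0.065 and others at -0.114 to 0.073, so the numbers were not taken as pairs. Leaving out 1 library gave 0 to 90 higher and 0 to 67 lower genes. DESeq2 size factors and equal depth gave counts within 1.5 times those reported. The 3 interaction genes became 296 with DESeq2, 1 with its size factors, 5 with no filter and 1 to 42 without 1 library, 42 without ACSS2i 1. All 19 genes kept their direction wherever they were tested, which their groups without overlap left little room to change. Acss2 reversed to -0.08 with voom and ranged from -0.38 to 0.48 without 1 library. List medians that changed sign were those of skin (-3.9 to 1.74 without 1 library, the widest), neutrophil (-1.02 to 0.02), Nrf2 targets (-0.17 to 0.01), p53 targets (-0.12 to 0.04) and dendritic cell genes (-0.19 at equal depth). The acetyl-CoA, chemokine, stress response, heat shock, epithelial and endothelial medians, reported at -0.18 to 0.16, also changed sign under at least 1 setting. The causes were not tested. At 2.85 to 4.7 M counts, genes of a few CPM, such as Acss2, have wide intervals.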
